A study of Mus musculus with 12 samples.

Results

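Tnc, Edn1, Lipg and Cd69 encode 3 secreted proteins and 1 surface protein that mouse macrophages make after contact with lipopolysaccharide (LPS), a component of the outer membrane of Gram-negative bacteria. Tnc encodes tenascin C, an extracellular matrix glycoprotein that binds integrins and can itself activate the LPS receptor TLR4. Edn1 encodes the precursor of endothelin, a vasoconstrictor peptide that is cut out by furin-like proteases and endothelin converting enzyme and acts on the receptors Ednra and Ednrb. Lipg encodes endothelial lipase, a secreted phospholipase that acts mainly on high-density lipoprotein. Cd69 encodes a C-type lectin-like receptor that appears early on activated leukocytes, binds the sphingosine 1-phosphate receptor S1pr1 and removes it from the surface. LPS binding to TLR4 switches on NF-kB and interferon regulatory factors, and macrophages then induce cytokines, matrix proteins and surface receptors within hours. Hdac3 is a histone deacetylase and the catalytic subunit of the NCoR and SMRT corepressor complexes, which bind chromatin at many genes of macrophages.

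The 4 genes were taken out of 19945 genes tested, each through the single probe set used for its symbol. They were chosen by measured values of these arrays, a strong LPS response in Hdac3 +/- macrophages beside a weak one in Hdac3 -/- macrophages. The LPS response in each genotype, the difference between genotypes after LPS and the difference between both LPS responses therefore entered the choice, and they are described here with their errors but without a test. The description "weak in -/-" held for Tnc and Lipg. It held only in part for Edn1 and Cd69, whose signals after LPS were still 5.67-fold and 11.2-fold above untreated in Hdac3 -/- arrays.

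RNA of bone marrow-derived macrophages of C57BL/6 mice was measured on 12 single-colour Affymetrix whole-transcript arrays. The 4 groups of 3 arrays were Hdac3 -/- cells given LPS, Hdac3 -/- cells left untreated, Hdac3 +/- cells given LPS and Hdac3 +/- cells left untreated. LPS was used at 100 ng/ml for 4 h, and the cells were at day 7 of differentiation in medium with L929-conditioned supernatant, which supplies CSF1. The Hdac3 +/- cells are labelled wild type although +/- names 1 altered allele. By these genotype labels the comparison is between 0 and 1 intact copies of Hdac3. How complete the loss was in Hdac3 -/- cells was not tested. The labels state neither how the gene was altered nor whether the cultures of a group came from separate mice, so every p-value measures only the spread between these arrays. The probe set of Hdac3 itself lay between 6.91 and 7.52 in the 6 Hdac3 -/- arrays and between 8.66 and 9.42 in the 6 Hdac3 +/- arrays, all in log2 signal. Its difference was -1.75 ± 0.153 (SE) after LPS and -1.74 ± 0.153 untreated (limma adjusted p = 5.9e-06 and 1.66e-05), and which part of the gene was removed is not known here.

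Most macrophage markers were bright on every array, and 2 arrays stood apart by sex-linked genes. The 8 macrophage markers checked had an array median between 11.5 and 12.1 log2 units, and 6 of them, Csf1r, Adgre1, Cd14, Itgam, Cd68 and Lyz2, were at or above the 96.3 percentile of every array. Fcgr1, an Fc receptor, was lower in Hdac3 -/- arrays after LPS (-2.41, limma adjusted p = 2.43e-06) and untreated (-1.45, 0.000603). Mertk, a receptor for dying cells, fell with LPS in both genotypes (-2.61 in Hdac3 -/- and -2.01 in Hdac3 +/- arrays, 6.21e-05 and 0.000214) and reached the 62.7 percentile at its lowest. Replicate 1 of the LPS-treated and of the untreated Hdac3 +/- cells carried the Y-linked gene Eif2s3y at 7.93 and 7.76, against 2.20 to 2.47 on the other 10 arrays. Xist was at 3.2 and 3.93 on those arrays and at or above 9.67 on the others. By these genes both Hdac3 +/- groups hold 1 male and 2 female samples, while all Hdac3 -/- samples were female. The differences of the 4 genes that involve Hdac3 +/- arrays are also given without these 2 arrays, which was chosen after seeing the data. Their shares of response kept, their places in an order and their correlations are given with all 12 arrays only.

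Promoter windows show the sequence around the start sites of the genes whose LPS response differed. The RefSeq promoter table for assembly GRCm38.p6 held windows for Tnc and Edn1. Each window below runs from 250 bases before to 30 bases after the annotated start, read 5′ to 3′ on the gene's strand, with searched motifs in capitals. Tnc lies on the minus strand and its window is chr4:64046986-64047265. Edn1 lies on the plus strand and its window is chr13:42301226-42301505.
Tnc: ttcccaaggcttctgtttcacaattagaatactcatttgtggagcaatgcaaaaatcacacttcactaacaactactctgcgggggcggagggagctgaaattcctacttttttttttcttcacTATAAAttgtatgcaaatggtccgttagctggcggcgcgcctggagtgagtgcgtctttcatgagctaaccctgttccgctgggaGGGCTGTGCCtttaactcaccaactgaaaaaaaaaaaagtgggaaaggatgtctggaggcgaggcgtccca
Edn1: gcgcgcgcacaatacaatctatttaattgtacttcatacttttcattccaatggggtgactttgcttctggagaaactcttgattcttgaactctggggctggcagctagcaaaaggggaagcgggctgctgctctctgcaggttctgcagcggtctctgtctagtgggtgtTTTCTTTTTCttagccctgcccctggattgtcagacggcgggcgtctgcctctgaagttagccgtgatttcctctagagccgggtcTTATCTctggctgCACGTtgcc
In Tnc the capitals mark TATAAA at -126 to -121 and GGGCTGTGCC at -41 to -32, a match to the NF-kB pattern of GGG and CC with 5 free bases between them. In Edn1 they mark a match on the opposite strand to the interferon-stimulated element (ISRE, GAAA and GAAA with 2 free bases between them) at -78 to -69, the GATA motif AGATAA at 9 to 14 and the hypoxia motif ACGTG at 22 to 26, the last 2 also on the opposite strand. Positions count from the annotated start. A second Tnc window, which starts further downstream and overlaps the first, held the same TATAAA and GGGCTGTGCC. The motifs were searched on both strands in 32851 windows of the same length, of which 48.9% held the NF-kB pattern, 13.1% TATAAA, 3.28% the ISRE, 10.7% AGATAA and 18.5% ACGTG. No window of Tnc or Edn1 held the AP-1 pattern TGANTCA, the CRE core TGACGT, the GAS pattern TTCNNNGAA or the C/EBP pattern TTGCNNAA, which occurred in 7.46%, 7.26%, 7.83% and 10.4% of windows. A match is a run of letters and not a measured binding site.

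Tnc was close to its untreated signal in LPS-treated Hdac3 -/- arrays and far above it in LPS-treated Hdac3 +/- arrays. Its probe set 10513739 read 4.26, 4.34 and 3.98 log2 units in Hdac3 -/- cells given LPS and 3.85, 3.96 and 3.88 in untreated Hdac3 -/- cells. It read 8.73, 8.25 and 8.53 in Hdac3 +/- cells given LPS and 4.13, 3.63 and 3.78 in untreated Hdac3 +/- cells. The 3 LPS-treated Hdac3 +/- arrays stood alone above the other 9, whose values ran together. In Hdac3 -/- cells the lowest LPS-treated array was only just above the highest untreated one. The LPS difference was 0.29 ± 0.164 (SE) in Hdac3 -/- and 4.66 ± 0.164 in Hdac3 +/- arrays, the second a 25.2-fold difference. After LPS the signal was 19.8-fold lower in Hdac3 -/- than in Hdac3 +/- arrays. The untreated signals and those of Hdac3 -/- cells given LPS lay at or under the 32.5 percentile of their array. The deposited values carry no detection call, so folds from such dim signals are ratios of signal and may understate the change. The difference between both LPS responses was -4.36 ± 0.232, and -4.39 ± 0.22 without the 2 male arrays. In bulk RNA such a difference cannot separate fewer cells with the transcript from less transcript per cell.

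Edn1 responded to LPS in both genotypes, with a much larger step in Hdac3 +/- arrays. Its probe set 10404783 read 7.17, 6.61 and 6.42 in Hdac3 -/- cells given LPS and 4.04, 4.47 and 4.16 in untreated Hdac3 -/- cells. It read 10.65, 10.40 and 9.96 in Hdac3 +/- cells given LPS and 4.22, 4.66 and 3.50 in untreated Hdac3 +/- cells. The order was LPS-treated Hdac3 +/-, then LPS-treated Hdac3 -/-, then both untreated groups, which overlapped each other. The groups next to each other in that order, apart from the untreated pair, did not overlap. The LPS difference was 2.50 ± 0.278 in Hdac3 -/- and 6.21 ± 0.278 in Hdac3 +/- arrays, or 5.67-fold and 73.9-fold. After LPS the signal was 12.2-fold lower in Hdac3 -/- arrays. The responses differed by -3.70 ± 0.393, and by -3.59 ± 0.447 without the male arrays.

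Lipg behaved like Tnc, with little or no step in Hdac3 -/- arrays. Its probe set 10459772 read 4.65, 3.92 and 4.07 in Hdac3 -/- cells given LPS and 3.83, 3.78 and 3.97 in untreated Hdac3 -/- cells. It read 7.85, 7.47 and 8.58 in Hdac3 +/- cells given LPS and 3.64, 4.48 and 3.95 in untreated Hdac3 +/- cells. Only the LPS-treated Hdac3 +/- arrays stood out, and the 9 others overlapped across their 3 groups. The LPS difference was 0.36 ± 0.276 in Hdac3 -/- and 3.94 ± 0.276 in Hdac3 +/- arrays, the second 15.4-fold. The untreated probe set and that of Hdac3 -/- cells given LPS were dim as for Tnc, at or under the 38.5 percentile. After LPS the signal was 13.5-fold lower in Hdac3 -/- arrays. The responses differed by -3.59 ± 0.39, and by -3.46 ± 0.431 without the male arrays.

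Cd69 kept the largest share of its response in Hdac3 -/- arrays and was also the only one of the 4 genes that started lower there. Its probe set 10548333 read 7.23, 8.12 and 7.45 in Hdac3 -/- cells given LPS and 4.17, 3.69 and 4.48 in untreated Hdac3 -/- cells. It read 11.83, 10.95 and 11.21 in Hdac3 +/- cells given LPS and 5.84, 4.75 and 5.81 in untreated Hdac3 +/- cells. The 4 groups did not overlap, in the order LPS-treated Hdac3 +/-, LPS-treated Hdac3 -/-, untreated Hdac3 +/- and untreated Hdac3 -/-. The last step of that order was the narrowest. The LPS difference was 3.48 ± 0.327 in Hdac3 -/- and 5.86 ± 0.327 in Hdac3 +/- arrays, or 11.2-fold and 58.3-fold. After LPS the signal was 13.3-fold lower in Hdac3 -/- arrays. The responses differed by -2.38 ± 0.462, and by -2.32 ± 0.474 without the male arrays.

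**Figure D1:**
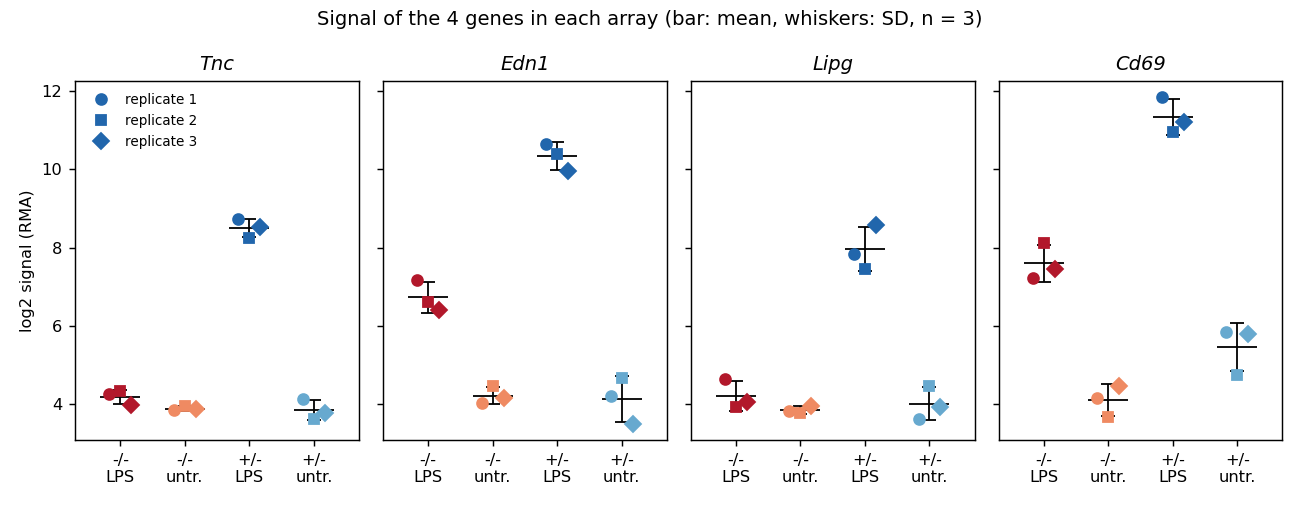
Deposited log2 signal (y axis) of Tnc, Edn1, Lipg and Cd69 in each of the 12 arrays, with the 4 groups along the x axis and the mean and SD (n = 3) drawn as a bar with whiskers. The LPS-treated Hdac3 +/- arrays are above every other array for each gene, and only for Edn1 and Cd69 do the LPS-treated Hdac3 -/- arrays stand clear of the untreated ones.

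After LPS the 4 genes were between 12.2-fold and 19.8-fold lower in Hdac3 -/- arrays, while the response that remained there ranged widely. The mean signal in Hdac3 -/- arrays given LPS was 5.04% of that in LPS-treated Hdac3 +/- arrays for Tnc, 8.22% for Edn1, 7.43% for Lipg and 7.52% for Cd69. The share of the log2 LPS response that remained in Hdac3 -/- arrays was 6.32% for Tnc, 9.02% for Lipg, 40.3% for Edn1 and 59.4% for Cd69. LPS-treated Hdac3 -/- arrays lay above untreated Hdac3 +/- arrays by 0.34 log2 units for Tnc, 0.19 for Lipg, 2.60 for Edn1 and 2.13 for Cd69. All 4 genes separated LPS-treated from untreated arrays without overlap in Hdac3 +/- cells, where 25.1% of all genes were called and 9.59% called higher. In Hdac3 -/- cells Edn1 and Cd69 did, and Lipg did not. Tnc did only just, with its lowest LPS-treated array at 3.98 and its highest untreated array at 3.96. In that comparison 8.87% of all genes were called, 3.69% higher and 5.18% lower. After LPS the genotypes did not overlap in any of the 4, with 15.7% of all genes called, 9.69% higher and 5.99% lower in Hdac3 -/- arrays. A lack of overlap between 3 and 3 arrays is a different measure from a call. The share of all genes without overlap was not counted, so the shares called are no like-for-like background. For the difference between LPS responses 1.08% of all genes were called, 0.777% with a smaller response in Hdac3 -/- arrays. These counts follow from the choice of the genes, as do their places in the order of all 19945 genes by that difference, which were 1 for Tnc, 2 for Edn1, 4 for Lipg and 28 for Cd69 from the most negative. Without the 2 male arrays the LPS difference in Hdac3 +/- arrays was 4.68 for Tnc, 6.10 for Edn1, 3.81 for Lipg and 5.80 for Cd69. The difference between genotypes after LPS was then -4.20 for Tnc, -3.45 for Edn1, -3.81 for Lipg and -3.48 for Cd69.

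Before LPS, Cd69 was lower in Hdac3 -/- macrophages and no difference was detected in the other 3 genes. This comparison was not named by the rule that chose the genes, although its arrays also enter the LPS responses that were. Cd69 averaged 4.11 ± 0.40 in Hdac3 -/- and 5.47 ± 0.62 in Hdac3 +/- arrays (SD, n = 3 each), a difference of -1.35 with a 95% confidence interval from -2.06 to -0.649, or 2.55-fold. The limma adjusted p over 19945 genes was 0.0426, and 2.66% of all genes were called in this comparison, with 1.44% of all genes called lower in Hdac3 -/- cells. The groups did not overlap, and the nearest arrays were 4.48 in Hdac3 -/- and 4.75 in Hdac3 +/- cells. The call held in 10 of 22 alternatives and its adjusted p ran from 0.00578 to 0.162. It was lost without untreated Hdac3 -/- replicate 1 (-1.38, adjusted p = 0.14) or 2 (-1.14, 0.138), and without untreated Hdac3 +/- replicate 1 (-1.16, 0.162) or 3 (-1.18, 0.16). It was also lost without Hdac3 -/- LPS replicate 1 (0.0529) or 3 (0.0631) or Hdac3 +/- LPS replicate 3 (0.063), which leave the difference itself at -1.35. Without both male arrays it was -1.16 (0.126), and with the replicate number as a block over all groups -1.35 (0.0522).

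For the other 3 genes the interval of the untreated difference covered 0. Tnc differed by 0.05, with an interval from -0.302 to 0.404 (limma adjusted p = 0.954). Edn1 differed by 0.10, from -0.499 to 0.696 (0.946), and Lipg by -0.16, from -0.756 to 0.43 (0.901). Without the male arrays these differences were 0.19 for Tnc (0.728), 0.14 for Edn1 (0.928) and -0.35 for Lipg (0.749). Untreated Hdac3 -/- and Hdac3 +/- arrays overlapped for all 3. These probe sets were dim without LPS, at the 26.3 to 28.2 and 21.7 to 31.4 percentile of their array for Tnc in untreated Hdac3 -/- and Hdac3 +/- cells. A difference between low amounts of these transcripts may therefore not be detectable here.

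Other genes with a strong LPS response in Hdac3 +/- cells give the background against which the 4 genes are described. In all, 57 genes were called in Hdac3 +/- arrays with an LPS response at least as large as that of Lipg, 3.94 log2 units, and 53 of them were not among the 4. The other 53 kept a median of 79.6% of their log2 response in Hdac3 -/- arrays, with a range from 19.0% to 166.3%. Of the 53, 8 kept under 50% and 20 kept at least 90%, and 50 were called higher after LPS in Hdac3 -/- arrays. In the order of shares kept Tnc was 1 and Lipg 2, while Edn1 was 10 and Cd69 17, an order that the choice of the 4 genes by these responses largely sets. Tnc and Lipg drop out of it when dim genes are left out. Between Lipg and Edn1 stood Ifi214, Cxcl11, Il33, Tnfsf10, Ifit3b, Iigp1 and Gbp4. The RefSeq table lists Cxcl11 as a transcribed pseudogene. The membership of the 57 rests on the same response in Hdac3 +/- arrays that the shares are divided by.

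Cytokine genes that LPS is best known for had large responses in both genotypes. Il1a had an LPS response of 7.35 in Hdac3 -/- and 7.18 in Hdac3 +/- arrays, which differed by 0.18 ± 0.394 (limma adjusted p = 0.902). Il1b, the inflammasome substrate, had 6.88 in Hdac3 -/- and 6.57 in Hdac3 +/- arrays, which differed by 0.31 ± 0.381 (0.807). Tnf, which lies below the size that defined the 57 genes, had 2.43 in Hdac3 -/- and 2.72 in Hdac3 +/- arrays, which differed by -0.29 ± 0.515 (0.87). These SEs are too wide to show that the responses were equal.

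Of the 53 genes 12 were called with a smaller response in Hdac3 -/- arrays and 1, the chemokine gene Cxcl10, with a larger one (2.78 ± 0.459, limma adjusted p = 0.00924). Of all genes 0.777% were called with a smaller and 0.306% with a larger response. The 53 were chosen by a large response in Hdac3 +/- arrays, which enters this difference and favours a negative sign. Their counts are therefore a description and not a test. The interferon-induced genes Gbp4 (-3.00), Tnfsf10 (-3.12) and Iigp1 (-2.73), the cytokine gene Il6 (-2.97) and the chemokine pseudogene Cxcl11 (-3.44) held in every alternative in which they were fitted. The collagenase gene Mmp13 had an LPS response of 4.09 in Hdac3 -/- and 6.63 in Hdac3 +/- arrays, a difference of -2.55 ± 0.45 (adjusted p = 0.0143), which was lost without Hdac3 -/- LPS replicate 3 (-2.39, 0.0524) or untreated Hdac3 -/- replicate 1 (-2.37, 0.054). Nos2, the inducible nitric oxide synthase, had 4.30 in Hdac3 -/- and 6.70 in Hdac3 +/- arrays, a difference of -2.40 ± 0.532 (0.0492) that held in 7 of 21 alternatives. The Nos2 call was lost without Hdac3 -/- LPS replicate 1, Hdac3 +/- LPS replicate 2 or 3, or any 1 of the 6 untreated arrays (-2.53 to -2.19, 0.0682 to 0.129). Ptgs2, the inducible prostaglandin synthase, had 5.41 in Hdac3 -/- and 7.34 in Hdac3 +/- arrays and was not called (-1.93 ± 0.566, 0.14), although it was without Hdac3 -/- LPS replicate 2 (-2.52, 0.00679) and with array weights (-2.40, 0.0283).

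**Figure D2:**
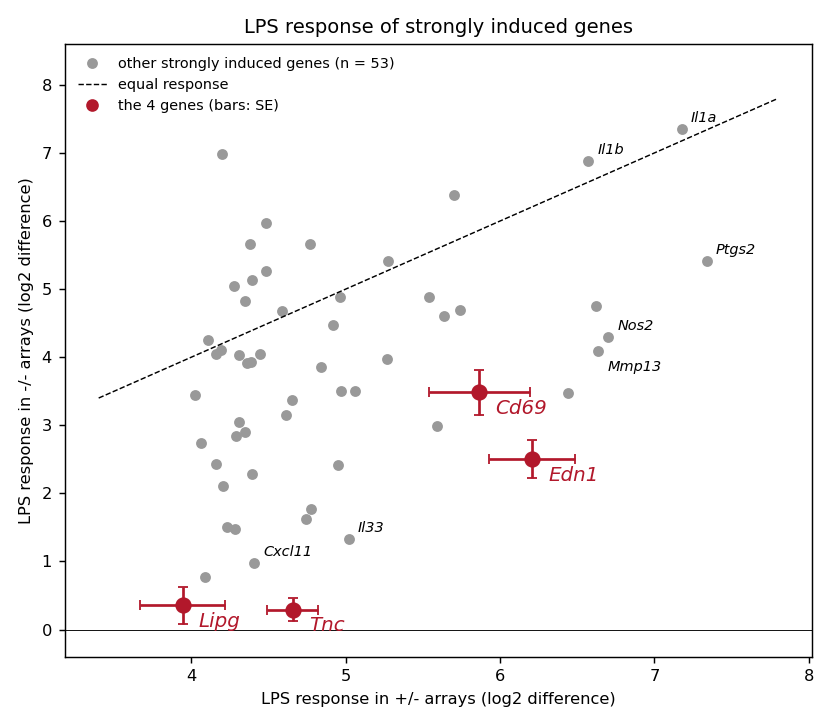
LPS response (log2 difference, LPS minus untreated) in Hdac3 -/- arrays (y axis) against that in Hdac3 +/- arrays (x axis) for the 57 genes with a response of at least 3.94 in Hdac3 +/- arrays. The 4 genes are red with their SE, the 53 others are grey, and the dashed line marks equal responses. Tnc and Lipg lie next to the zero line, and Edn1 and Cd69 lie below most genes of a similar response in Hdac3 +/- arrays.

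Each gene had other genes that followed nearly the same course over the 12 arrays. The 4 genes correlated with each other at Pearson r from 0.883 (Lipg and Cd69) to 0.976 (Tnc and Lipg), as a description of 12 arrays that fall into 4 groups. After the group means were taken away, the same pairs ranged from -0.433 (Edn1 and Cd69) to 0.628 (Tnc and Cd69). The 5 genes most like each of the 4 were taken by the highest r over the 12 arrays, skipping predicted genes and clone names. For Tnc they were Gbp11 (0.985), Mier3 (0.984), Gnb4 (0.982), Tbk1 (0.982) and Trmt61b (0.981). Their responses were smaller than that of Tnc, with Gbp11 at 0.29 in Hdac3 -/- and 2.30 in Hdac3 +/- arrays, and Tbk1, a kinase upstream of interferon regulatory factors, at 0.10 and 0.77. For Lipg they were Mier3 (0.988), Il15ra (0.984), Mmp25 (0.982), Tmem67 (0.979) and Cxcl11 (0.979), so that Mier3 was shared with Tnc. Il15ra, the interleukin receptor subunit that presents IL15, had a response of 0.72 in Hdac3 -/- and 3.46 in Hdac3 +/- arrays.

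The 5 genes most like Edn1 and the 5 most like Cd69 shared none with each other or with those of Tnc and Lipg. For Edn1 they were Batf2 (0.997), Csrnp1 (0.992), Hdc (0.987), Tor1aip2 (0.985) and Trim26 (0.985). Batf2, a transcription factor of the AP-1 class, had a response of 1.16 in Hdac3 -/- and 3.08 in Hdac3 +/- arrays, and Hdc, the enzyme that makes histamine, 1.33 and 3.62. For Cd69 they were Samsn1 (0.99), Rapgef2 (0.985), Daxx (0.983), Nt5c3 (0.978) and Gbp7 (0.976). Gbp7, a guanylate-binding protein, had a response of 2.71 in Hdac3 -/- and 3.60 in Hdac3 +/- arrays and an untreated difference of -1.38. None of the 20 was also among the 5 most like genes when r was taken over the 4 group means, where many genes approach 1.

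The endothelin pathway around Edn1 had no common direction. Of 18 measured genes of the list other than Edn1, LPS called 3 higher and 0 lower in Hdac3 -/- arrays (16.7%) and 5 higher and 2 lower in Hdac3 +/- arrays (38.9%), beside 8.87% and 25.1% of all genes. The median LPS difference was 0.125 in Hdac3 -/- and 0.157 in Hdac3 +/- arrays, beside 0.021 and 0.0839 over all genes. Furin, which cuts the endothelin precursor, rose in Hdac3 +/- arrays (1.52 ± 0.247, limma adjusted p = 0.0005) and was at 0.75 ± 0.247 in Hdac3 -/- arrays (0.0828). Ece1, the converting enzyme, was at 0.00 in Hdac3 -/- and -0.30 in Hdac3 +/- arrays (0.999 and 0.177), and the receptor Ednrb at -0.02 and 0.17 (0.992 and 0.831), neither called. Adm, the vasodilator peptide adrenomedullin, rose by 2.17 ± 0.324 in Hdac3 -/- and by 1.27 ± 0.324 in Hdac3 +/- arrays (0.000685 and 0.011), and the second call was lost without untreated Hdac3 +/- replicate 3 (1.11, 0.052). Ptgs2, named above, rose in both genotypes as Adm did. Gna11, a G protein subunit, fell in Hdac3 +/- arrays (-0.68, 0.00487) and was chosen after its values were seen.

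Within that list, phospholipase C genes, which act downstream of endothelin receptors, differed between genotypes. Plcb4 was lower in untreated Hdac3 -/- arrays by -1.004 ± 0.143 (limma adjusted p = 0.00129). It read 4.98, 4.91 and 4.99 there, against 5.92, 6.10 and 5.87 in untreated Hdac3 +/- arrays. Its LPS difference was 0.62 ± 0.143 in Hdac3 -/- and -0.54 ± 0.143 in Hdac3 +/- arrays (0.0144 and 0.0131), so that the genotypes met after LPS at 5.58 in Hdac3 -/- and 5.42 in Hdac3 +/- arrays. The responses differed by 1.16 ± 0.202 (0.0134), the only call of the list for that difference and opposite in sign to Edn1. That call held in all 20 alternatives fitted. The LPS call was lost in Hdac3 -/- arrays without LPS replicate 2 (0.53, 0.073) or untreated replicate 1 (0.62, 0.0503), and in Hdac3 +/- arrays without LPS replicate 3 (-0.44, 0.0637). Plcb3 was at 0.12 ± 0.152 in Hdac3 -/- arrays (0.765) and rose by 0.92 ± 0.152 in Hdac3 +/- arrays (0.000593), and the difference between its responses was not called (-0.80 ± 0.215, 0.104). At an unadjusted p under 0.05 limma counted 7 of the 18 genes for the difference between LPS responses, beside 11.4% of all genes. The convertase gene Pcsk7 passed untreated at -0.49 ± 0.12 (0.0458) and held in 7 of 22 alternatives. It was lost without any 1 of the untreated arrays or the LPS-treated Hdac3 -/- arrays, or without Hdac3 +/- LPS replicate 3 (-0.54 to -0.42, 0.0623 to 0.178), and with the replicate number as a block (0.0592).

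Among receptors and matrix partners of tenascin C, Vcan and Sdc4 rose and Tlr4 fell with LPS in both genotypes. Of 24 measured genes other than Tnc, LPS called 4 higher and 2 lower in Hdac3 -/- arrays (25%) and 6 higher and 1 lower in Hdac3 +/- arrays (29.2%), beside 8.87% and 25.1% of all genes. The median LPS difference was 0.151 in Hdac3 -/- and 0.209 in Hdac3 +/- arrays. Vcan, the matrix proteoglycan versican, rose by 3.15 ± 0.368 in Hdac3 -/- and by 4.62 ± 0.368 in Hdac3 +/- arrays (limma adjusted p = 9.15e-05 and 1.17e-06). Sdc4, a syndecan that binds matrix proteins at the surface, rose by 2.04 ± 0.16 in Hdac3 -/- and by 2.57 ± 0.16 in Hdac3 +/- arrays (2.42e-06 and 1.46e-07). Tlr4 fell by 1.56 ± 0.166 in Hdac3 -/- and by 1.16 ± 0.166 in Hdac3 +/- arrays (4.04e-05 and 0.00019). Tnn, a further tenascin, rose by 0.83 in Hdac3 -/- and by 1.10 in Hdac3 +/- arrays (0.0228 and 0.00164), the first lost without Hdac3 -/- LPS replicate 1 (0.109) or 2 (0.0945) or untreated replicate 1 (0.0754) or 2 (0.0723). Thbs1, another matrix glycoprotein, was called in Hdac3 +/- arrays (2.93 ± 0.774, 0.0131), but not without LPS replicate 2 (2.34, 0.0674) or untreated replicate 1 (2.41, 0.0575), and had 1.76 in Hdac3 -/- arrays (0.215).

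Of the 4 integrin subunits named, Itga9 was lower and Itgb3 higher in untreated Hdac3 -/- arrays, and Itgav (-0.69, limma adjusted p = 0.585) and Itgb1 (-0.27, 0.419) were not called. Itga9, the subunit of a tenascin C receptor, read 4.87, 4.78 and 4.75 in untreated Hdac3 -/- arrays and 6.48, 5.73 and 6.05 in untreated Hdac3 +/- arrays. Its difference was -1.29 ± 0.256 untreated (limma adjusted p = 0.0139) and -2.10 ± 0.256 after LPS (0.000103). The untreated call was lost without untreated Hdac3 -/- replicate 1 (-1.32, 0.0546), without untreated Hdac3 +/- replicate 1 (-1.09, 0.0633) and without both male arrays (-1.09, 0.0745), while the call after LPS held in all 22 alternatives. Itgb3 was higher in untreated Hdac3 -/- arrays (0.90 ± 0.156, 0.00568) in all 21 alternatives. Itgav, its partner, had LPS differences of 1.84 in Hdac3 -/- and 1.25 in Hdac3 +/- arrays (0.0135 and 0.0444), which held in 19 and 11 of 22 alternatives. The first was lost without Hdac3 -/- LPS replicate 2 (1.70, 0.0607) or untreated replicate 1 (1.60, 0.0705) or 3 (1.47, 0.0651). The second was lost without any 1 of the LPS-treated Hdac3 -/- arrays, Hdac3 +/- LPS replicate 1 or 3, or any 1 of the untreated Hdac3 +/- arrays (1.00 to 1.41, 0.0519 to 0.16). Itgb1, the common beta subunit, was not called (0.13 and -0.05, 0.684 and 0.801). For the difference between LPS responses limma called 0 of the 24, and 4 had an unadjusted p under 0.05, beside 11.4% of all genes.

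Lipases and lipoprotein genes around Lipg had LPS calls at about the share of all genes in both genotypes. Of 23 measured genes other than Lipg, LPS called 0 higher and 2 lower in Hdac3 -/- arrays (8.7%) and 2 higher and 4 lower in Hdac3 +/- arrays (26.1%), beside 8.87% and 25.1% of all genes. At an unadjusted p under 0.05 limma counted 8 of the 23 in each genotype, beside 20.1% of all genes in Hdac3 -/- and 38.3% in Hdac3 +/- arrays. The 2 that fell in Hdac3 -/- arrays were Scarb1, a receptor of high-density lipoprotein (-0.95 ± 0.242, limma adjusted p = 0.0244), and the cholesterol transporter Abcg1 (-1.98, 0.0344), which was chosen after its values were seen. Neither held without Hdac3 -/- LPS replicate 2 (-0.75, 0.118 and -1.62, 0.152), untreated replicate 1 (-0.86, 0.105 and -1.72, 0.145) or untreated replicate 3 (-0.81, 0.108 and -1.56, 0.146), and Abcg1 not without LPS replicate 1 (-2.06, 0.0843). In Hdac3 +/- arrays Pla1a (0.94, 0.00751), a phosphatidylserine phospholipase, and Lcat (0.83, 0.00964), which esterifies cholesterol on lipoproteins, rose. Pla1a did not pass without both male arrays (0.83, 0.0584). Lipa, the lysosomal acid lipase, fell in Hdac3 +/- arrays by 0.70 ± 0.142 (0.00256).

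Other members of the lipase list passed less firmly or not at all. In Hdac3 +/- arrays Scarb1 (-0.87, limma adjusted p = 0.0178), Lrp1 (-0.83, 0.0343) and Lmf1 (-0.47, 0.0408) were called lower, and these calls held in 19, 16 and 9 of 22 alternatives. Lmf1, a lipase maturation factor, was chosen after its values were seen. It was lost without Hdac3 -/- LPS replicate 1, untreated Hdac3 -/- replicate 1 or 2, or replicate 2 or 3 of either Hdac3 +/- group (-0.53 to -0.33, 0.0508 to 0.144). It was also lost with the replicate number as a block (0.0551) and was at -0.21 after cyclic loess (0.364). Lrp1 was lost without Hdac3 +/- LPS replicate 2 or 3, untreated Hdac3 +/- replicate 1 or 3 (-0.88 to -0.64, 0.0658 to 0.145) or both male arrays (-0.96, 0.0578). Scarb1 was lost without LPS replicate 3 (-0.76, 0.0752) or untreated replicate 2 (-0.63, 0.0665) of Hdac3 +/-. Lpl, the lipoprotein lipase, had LPS differences of -0.41 ± 0.469 in Hdac3 -/- and -0.88 ± 0.469 in Hdac3 +/- arrays (0.732 and 0.186), and with the replicate number as a block the second was called at the same size (0.00185). Gpihbp1 and Angptl4, which anchor and inhibit lipoprotein lipase, were not called after LPS in either genotype. Apoe was higher in Hdac3 -/- arrays by 1.17 ± 0.256 after LPS (0.00728), in all 22 alternatives, and by 1.22 ± 0.256 untreated (0.0194). The untreated call was lost without untreated Hdac3 -/- replicate 1 (1.25, 0.073) or 3 (1.16, 0.0721) or Hdac3 +/- replicate 1 (0.89, 0.0543). For the difference between LPS responses limma called 0 of the 23, with 1 at an unadjusted p under 0.05.

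The partners of CD69 and the lectins encoded near it followed Cd69 in few cases. Of 37 measured genes other than Cd69, LPS called 2 higher and 1 lower in Hdac3 -/- arrays (8.11%) and 5 higher and 1 lower in Hdac3 +/- arrays (16.2%), beside 8.87% and 25.1% of all genes. Olr1, the scavenger receptor for oxidised lipoprotein, rose by 4.60 ± 0.302 in Hdac3 -/- and by 5.63 ± 0.302 in Hdac3 +/- arrays (limma adjusted p = 4.79e-07 and 3.75e-08). S1pr1, the receptor that CD69 binds, was at -0.48 ± 0.251 in Hdac3 -/- arrays (0.332) and fell by 1.62 ± 0.251 in Hdac3 +/- arrays (0.00036). It read 6.92, 6.81 and 7.10 in LPS-treated and 7.41, 7.93 and 6.92 in untreated Hdac3 -/- arrays, against 6.20, 6.98 and 6.28 in LPS-treated and 8.04, 7.88 and 8.39 in untreated Hdac3 +/- arrays. The difference between its responses was not called (1.14 ± 0.355, 0.173), and it was called with array weights (1.22, 0.0456). Klrk1, which encodes the receptor NKG2D, was at -0.04 in Hdac3 -/- arrays (0.942) and rose by 0.80 ± 0.183 in Hdac3 +/- arrays (0.0056). Sphk1, which makes sphingosine 1-phosphate, was called in Hdac3 +/- arrays (0.67, 0.0324), but not without LPS replicate 2 or 3 or untreated replicate 1 or 3 of that genotype (0.48 to 0.62, 0.0943 to 0.144).

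The remaining calls of the list held in fewer alternatives and were chosen after their values were seen. Slc3a2 (0.72, limma adjusted p = 0.0404) was called higher and Sgpl1 (-0.50, 0.0457) lower in Hdac3 -/- arrays, in 13 and 12 of 22 alternatives. Klrb1b (0.38, 0.0371) and Clec12b (0.39, 0.0498) were called higher in Hdac3 +/- arrays, in 10 and 6 of 21, and both were lost with the replicate number as a block (0.0604 and 0.0667). Their differences were also smaller after renormalization. Klrb1b was at 0.209 after quantile normalization (0.17) and 0.213 after cyclic loess (0.16). Clec12b was at 0.225 (0.219) and 0.199 (0.291) in the same fits.

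Clec12a, an inhibitory lectin receptor 2 measured genes away from Cd69, was lower in untreated Hdac3 -/- arrays as Cd69 was. It read 9.86, 9.15 and 10.10 there, against 10.92, 10.76 and 11.41 in untreated Hdac3 +/- arrays, a difference of -1.32 ± 0.224 (limma adjusted p = 0.00484). That call was lost only in the fit of those 2 groups alone (0.0532). Clec2d, the nearest measured gene on the other side, was not called untreated (-1.05 ± 0.409, 0.271), but was without untreated Hdac3 -/- replicate 3 (-1.54, 0.0444). Its LPS differences were 1.22 ± 0.409 in Hdac3 -/- and 1.12 ± 0.409 in Hdac3 +/- arrays (0.0867 and 0.06), the second called with the replicate number as a block (0.00755). The second was also called without untreated Hdac3 -/- replicate 2 (0.00659) or 3 (0.0215) or untreated Hdac3 +/- replicate 3 (1.42, 0.0408). For the difference between LPS responses limma called 0 of the 37, with 4 at an unadjusted p under 0.05.

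After LPS, genotype calls ran in both directions in the endothelin and lipase lists, and the few calls of the tenascin and CD69 lists were lower in Hdac3 -/- arrays. The endothelin list had 2 higher and 3 lower in Hdac3 -/- arrays (27.8%), the tenascin list 0 and 3 (12.5%), the lipase list 4 and 1 (21.7%) and the CD69 list 0 and 1 (2.7%), beside 15.7% of all genes. In the endothelin list Gnaq (0.62, limma adjusted p = 0.0106) and Gna11 (0.71, 0.00615) were higher, and Pcsk7 (-1.15, 2.9e-05), Plcb3 (-0.99, 0.00065) and Ptgs2 (-2.27, 0.00174) lower. In the lipase list Lipe, the hormone-sensitive lipase, was lower (-1.08, 0.00303), and Lipa (0.51, 0.0277), Scarb1 (0.81, 0.0356), Cd36 (0.69, 0.0378) and Apoe were higher. Lipa, Scarb1 and Cd36 held in 16, 14 and 16 of 22 alternatives, and Scarb1 was lost with the replicate number as a block (0.0569). Klrk1, a dim gene, was the call of the CD69 list (-0.74, 0.0139), in 18 of 21. It was lost without both male arrays (-0.59, 0.0565) and without Hdac3 -/- LPS replicate 1 (-0.71, 0.0548) or 3 (-0.695, 0.0644). The tenascin list's 3 were Itga9, Vcan (-2.70 ± 0.368, limma adjusted p = 0.000247) and Tlr4 (-0.54, 0.043), the last held in 12 of 22 alternatives. At an unadjusted p under 0.05 limma counted 8 of 18 in the endothelin, 3 of 24 in the tenascin, 11 of 23 in the lipase and 9 of 37 in the CD69 list, beside 28.9% of all genes.

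**Figure D3:**
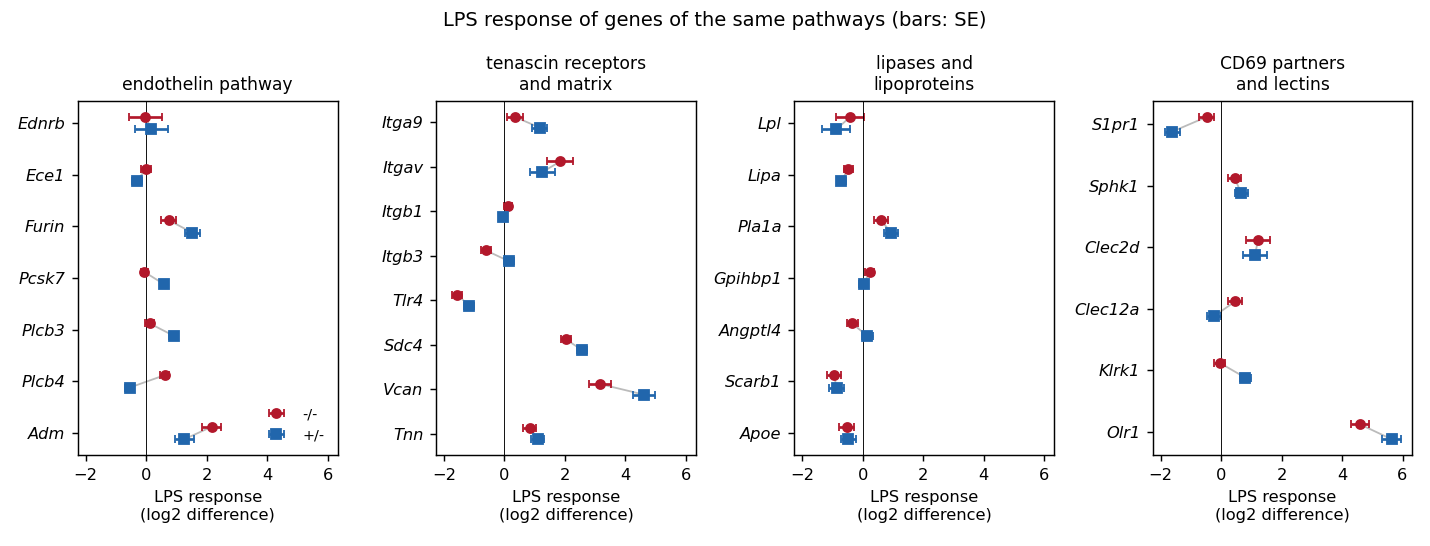
LPS response (log2 difference, bars: SE) of genes of the 4 lists that the text names, in Hdac3 -/- (red circles) and Hdac3 +/- arrays (blue squares). Vcan, Sdc4 and Olr1 rise in both genotypes, Tlr4 falls in both, and Plcb4 has responses of opposite sign.

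The genes that flank the 4 on their chromosomes were measured as well, 5 on each side in RefSeq order. Of these 40 neighbours, 0 were called with a larger and 2 with a smaller LPS response in Hdac3 -/- than in Hdac3 +/- arrays, which is 5.0% beside 1.08% of all genes. Tnfsf8, the CD30 ligand gene, is the measured gene next to Tnc. It read 5.73, 5.20 and 4.88 in LPS-treated and 4.62, 5.22 and 4.52 in untreated Hdac3 -/- arrays, against 8.05, 8.85 and 8.46 in LPS-treated and 5.05, 5.26 and 5.33 in untreated Hdac3 +/- arrays. Only the LPS-treated Hdac3 +/- arrays stood apart, as they did for Tnc. The LPS difference was 0.48 ± 0.248 in Hdac3 -/- and 3.24 ± 0.248 in Hdac3 +/- arrays (limma adjusted p = 0.314 and 8.12e-07). The responses differed by -2.76 ± 0.351 (0.00138), in all 21 alternatives. Tnfsf15, the next gene on that side, rose by 2.52 ± 0.239 in Hdac3 -/- and by 2.80 ± 0.239 in Hdac3 +/- arrays (1.32e-05 and 2.08e-06), and its responses were not called as different (-0.28 ± 0.338, 0.803). Tlr4 lies 5 measured genes away on the opposite side of Tnc and fell in both genotypes.

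The second call among neighbours was weak. Tmem170b, 5 measured genes away from Edn1, had an LPS difference of 0.11 ± 0.168 in Hdac3 -/- and 1.18 ± 0.168 in Hdac3 +/- arrays (limma adjusted p = 0.82 and 0.000182). The responses differed by -1.07 ± 0.238 (0.0492), a call that held in 6 of 21 alternatives. It was lost without any 1 array other than Hdac3 -/- LPS replicate 2 and Hdac3 +/- LPS replicate 2 (-1.17 to -0.95, 0.0504 to 0.135), and with the replicate number as a block (0.0749). Hivep1, next to Edn1, rose in Hdac3 +/- arrays (0.81 ± 0.169, 0.00302), with 0.34 in Hdac3 -/- arrays (0.283) and no call for the difference. LPS called 1 higher and 1 lower of the 40 neighbours in Hdac3 -/- arrays (5.0%) and 8 higher and 4 lower in Hdac3 +/- arrays (30.0%), beside 8.87% and 25.1% of all genes. With 2 neighbours on each side, 1 of 16, Tnfsf8, was called for the difference between responses. Most neighbours of Cd69 are lectin genes that also stand in the list above.

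**Figure D4:**
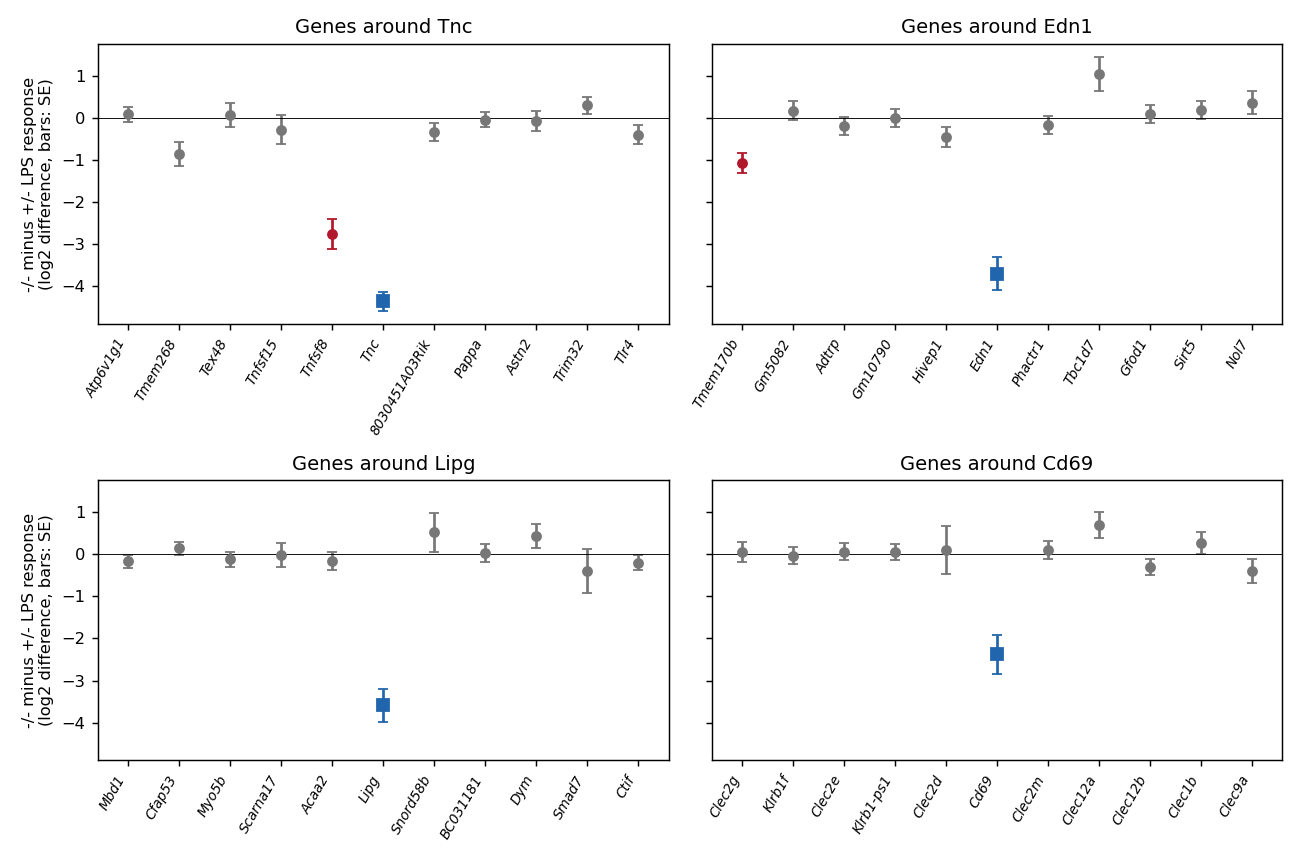
Difference between LPS responses (Hdac3 -/- minus Hdac3 +/-, log2, bars: SE) of each of the 4 genes (blue squares) and the 5 measured genes on each side of it in chromosome order (circles, red where the limma adjusted p is under 0.05). Tnfsf8 beside Tnc is the neighbour with the most negative difference, and Tmem170b near Edn1 is the other one called.

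Markers of other cell types that make these products were measured, and a few of them moved with LPS in Hdac3 +/- arrays. Edn1 and Lipg are known from endothelial cells, and 10 endothelial markers were measured. Their log2 summed signal lay between 8.34 and 8.40 in LPS-treated and 8.29 and 8.36 in untreated Hdac3 -/- arrays, and between 8.51 and 8.84 in LPS-treated and 8.15 and 8.63 in untreated Hdac3 +/- arrays. LPS called 1 of the 10 higher in Hdac3 -/- and 2 in Hdac3 +/- arrays, beside 3.69% and 9.59% of all genes. Kdr, a receptor of vascular endothelial growth factor, rose in Hdac3 +/- arrays (1.32 ± 0.221, limma adjusted p = 0.00063) and was lower in Hdac3 -/- arrays after LPS (-2.10, 2.96e-05). Cdh5, the endothelial cadherin, was called higher after LPS in both genotypes (0.85 in Hdac3 -/- and 1.18 in Hdac3 +/- arrays, 0.0325 and 0.00196). Between genotypes after LPS, Kdr was the only call among the 10. In that comparison Esam (0.63, 0.0677), Vwf (0.10) and Emcn (0.002) had the opposite sign to Kdr. Cdh5 (-0.25), Tek (-0.13), Pecam1 (-0.04), Erg (-0.04), Cldn5 (-0.03) and Tie1 (-0.01) had the same sign. Pecam1 lay between 4.00 and 4.35 over the 12 arrays (at or under the 35.2 percentile), Cldn5 between 5.25 and 5.86 and Vwf between 5.78 and 7.37 (at or above the 58.3 percentile), and none of these 3 was called with LPS.

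Fibroblasts make tenascin C, and lymphocytes carry CD69. Of 9 fibroblast markers, Dcn (0.72, limma adjusted p = 0.00407) and Pdgfrb (0.69, 0.0141) were called higher after LPS in Hdac3 +/- arrays, beside 9.59% of all genes. Dcn was at -0.05 with LPS in Hdac3 -/- arrays (0.92) and was lower there than in Hdac3 +/- arrays after LPS (-0.71, 0.00684), in the direction of Tnc. Its signal was dim, from 3.69 to 4.84 over all arrays (at or under the 40.3 percentile). No other marker of the 9 was called in that comparison. Acta2 (0.61), Pdgfrb (0.28) and Thy1 (0.02) had the opposite sign, and Col1a1 (-0.31), Lum (-0.24), Col1a2 (-0.22), Col3a1 (-0.11) and Pdgfra (-0.05) the same sign. The log2 summed signal of these 9 lay between 8.94 and 9.13 in LPS-treated and 8.78 and 8.97 in untreated Hdac3 -/- arrays, and between 8.84 and 9.09 in LPS-treated and 8.56 and 8.90 in untreated Hdac3 +/- arrays. The summed signal of 6 T cell markers lay between 6.76 and 7.12 in LPS-treated and 6.96 and 7.00 in untreated Hdac3 -/- arrays, and between 7.09 and 7.38 in LPS-treated and 6.76 and 7.15 in untreated Hdac3 +/- arrays. Of these 6 only Cd3e was called higher after LPS in Hdac3 +/- arrays (0.53, 0.0324), beside 9.59% of all genes, at signals from 4.71 to 5.75 over all arrays. Of 6 NK cell markers none was called in any comparison. Ncr1 lay between 2.89 and 3.36, at or under the 16.4 percentile of each array. Prf1, the brightest of them, lay between 5.00 and 5.63, from the 45.9 to the 55.3 percentile. Of 4 B cell markers, Cd79a was called higher after LPS in Hdac3 +/- arrays (0.75, limma adjusted p = 0.00286), beside 9.59% of all genes. Cd79b was called lower in untreated Hdac3 -/- arrays (-0.60, 0.0359), beside 1.44% of all genes. In that comparison Cd79a (0.05), Ms4a1 (0.18) and Pax5 (0.14) had the opposite sign. The part of such cells in the differences of the 4 genes was not tested.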

How the data were processed

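RNA of 12 macrophage cultures was measured on single-colour Affymetrix arrays, and the authors deposited 1 log2 signal for each probe set and array, with RMA and affy named in the submitters' processing notes. No label or header names a chip definition or genome build. Of 28193 probe sets, 21648 carried 1 symbol in the platform annotation, 1313 several and 5232 none. Where a gene had several, the probe set with the highest mean was used, which left 19945 genes. A model of 4 group means was fitted to the deposited log2 values with limma 3.58.1 in R 4.3.3 (lmFit, eBayes), with Benjamini-Hochberg adjustment over all genes and a threshold of 0.05, after a test on simulated data. Precision is limited by the 3 arrays of each group.

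The 4 genes, the gene lists and the cell type markers were chosen with earlier results of these data known. Genes named from a list were its called members with the largest differences, beside a few listed by name. Further strongly induced genes, Hivep1, Tnfsf15, Tnn, Lipa, the other genotype calls of the lists and the markers named were chosen after their values were seen. Same-numbered Hdac3 +/- arrays deviated together (r = 0.243, 0.327 and 0.223) and those of Hdac3 -/- did not all (0.0898, 0.195 and -0.122). Arrays of different number reached 0.29 within a genotype and 0.514 between genotypes of the same treatment. These correlations therefore do not settle whether numbers pair the Hdac3 +/- arrays, and the labels state no pairing. Alternatives covered normalization, array weights, an intensity trend, dim genes, probe set choice, 2-group fits, replicate blocks and leaving out each array.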

Additional observations from a re-analysis of the deposited data

Results flagged for a closer look

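The LPS responses of 5 genes named by rule were flagged in limma's test as different between Hdac3 -/- and Hdac3 +/- arrays. Mmp13 and Nos2 of these 5 belong to the strongly induced genes called in the report, as do Cxcl10 and Cxcl11. Tnfsf8, next to Tnc, had a difference of -2.76 (adjusted p = 0.00138), and Mmp13 had -2.55 (0.0143). Nos2 had -2.40 (0.0492) and Tmem170b, near Edn1, had -1.07 (0.0492), calls that held in only 7 and 6 of 21 alternatives. Plcb4, of the endothelin list, had 1.16 (0.0134) with the larger response in Hdac3 -/- arrays, and is the one of these 5 with that sign.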

How the results depend on the processing

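In the contrasts that chose the 4 genes, which have no test here, 340 of 340 values under alternatives kept their sign, as the choice largely fixes. Of 86 untreated values 5 turned their sign, 2 for Tnc, 2 for Edn1 and 1 for Lipg, none of them called, and the Cd69 call was lost in 12 of 22. The Cd69 difference was -1.163 without both male arrays, -1.352 with every probe set, -1.352 in the fit of 2 groups, -1.268 after quantile normalization and -1.352 with the replicate block over all groups, and -1.712 to -1.14 when single arrays were left out. Array weights called 4424 genes for LPS in Hdac3 -/- arrays, 1186 untreated and 592 for the difference between responses, against 1769, 531 and 216. The fit of the 2 untreated groups alone called 321. Leaving out single arrays gave 1129 to 1941 for LPS in Hdac3 -/- arrays, 1685 to 3495 between genotypes after LPS, 266 to 606 untreated and 97 to 349 for the difference between responses. Leaving out dim genes removed Tnc and Lipg, so the smallest response became that of Cd69, and 8 strongly induced genes remained, with 3 others of smaller response. With the replicate block within genotype, limma called 5478 genes for LPS in Hdac3 +/- arrays, 2264 in Hdac3 -/- arrays and 312 for the difference between responses. Beside the calls that a block changed in the report, it brought Apoe under the threshold for LPS in Hdac3 +/- arrays (adjusted p = 0.0356). Of 546 list and neighbour counts 111 moved by over 1.5 times, and of 2446 values of other named genes 2307 kept their side of the threshold, 102 lost a call, 37 gained one and 0 called values turned their sign. The cause was not tested. The difference between responses was not fitted with 2 groups or with the block over all groups.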
